A study of Mus musculus with 18 samples.

Results

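Transcripts of 5 genes of the red blood cell were followed through the retinas of diabetic and normoglycemic mice with and without NACET: the alpha globin genes Hba-a1 and Hba-a2, the beta globin genes Hbb-b1 and Hbb-b2, and Alas2. These were 5 of the 35006 gene names in the count tables. The set was chosen by 1 measured value: Hbb-b2 had been among the largest increases between Akita + NACET and Akita retinas, and the other genes were added as its closest relatives and as the erythroid enzyme of heme synthesis. Because the Akita + NACET libraries took part in that choice, the values of these genes in every comparison with Akita + NACET are a description without a test. The Akita libraries took part too, so that the test of Akita against WT is not independent of the choice.

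Hemoglobin is a tetramer of alpha and beta globin chains, each holding a heme group that binds oxygen. Adult mice make the alpha chains from the paired genes Hba-a1 and Hba-a2 and the beta chains from the paired genes Hbb-b1 and Hbb-b2, and ALAS2 catalyses the first and rate-limiting step of heme synthesis in erythroid cells. Circulating reticulocytes and young red cells still carry these messenger RNAs, so that a tissue that holds blood yields globin reads, and globin transcripts have also been described in neurons and glia. In a bulk sample, fewer cells of a type and less RNA per cell cannot be told apart.

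The 18 libraries were made from poly(A) RNA of whole retinas of male mice at 24 weeks of age. Akita mice are heterozygous for the Ins2Akita mutation of the insulin gene on C57BL/6 and become diabetic early in life through loss of pancreatic beta cells, and the normoglycemic controls (WT) were C57BL/6J. NACET, the ethyl ester of N-acetylcysteine, was dissolved in the drinking water (0.33 mg/mL, to give 50 mg/kg per day) from 4 weeks of age, and untreated mice drank water without it. There were 3 WT, 6 WT + NACET, 4 Akita and 5 Akita + NACET libraries. Nothing in the labels ties a library to an animal, so that the p-values measure the spread between these libraries.

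Each library held 11495596 to 17814479 counts on genes. Gnat1, the transducin subunit that marks rod photoreceptors, was abundant in every library, at 8426 to 24550 CPM (counts scaled to the library total). Some features of the libraries touch the comparisons below. Nnt, a mitochondrial transhydrogenase that is mutated in C57BL/6J, was at 16.3 to 23.8 CPM in WT + NACET and at 7.05 to 14.8 CPM in the other groups. Wherever WT + NACET is set against WT, a difference in genetic background cannot be told apart from the treatment. Where it is set against Akita + NACET, such a difference cannot be told apart from diabetes. The share of reads outside exons was 14.9 to 17.1% in WT, 9.55 to 16.6% in WT + NACET, 9.67 to 13.3% in Akita and 14.3 to 19.8% in Akita + NACET. Lens crystallin genes summed to over 1000 CPM in 3 libraries, which were WT + NACET 5, Akita 2 and Akita + NACET 3.

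The near-identity of the paired globin genes sets what their counts can show, so their sequences are given first. On mm9 the alpha genes lie side by side on chromosome 11, Hba-a1 at chr11:32183511-32184465 and Hba-a2 at chr11:32196489-32197301 on the plus strand. The beta genes lie on the minus strand of chromosome 7, Hbb-b1 at chr7:110975048-110976610 and Hbb-b2 at chr7:110961038-110962510. Alas2 lies on the plus strand of the X chromosome at chrX:146981918-147005181. The coding sequences of Hba-a1 and Hba-a2 are both 429 bases long and differ at 1 base, C381T, counted from the A of the start codon with the Hba-a1 base first. Those of Hbb-b1 and Hbb-b2 are both 444 bases long and differ at 1 base, C417T, with the Hbb-b1 base first. The coding stretches around these bases follow because they are where a read within the coding sequence can tell the members of a pair apart, and the capital marks the differing base.
Hba-a1: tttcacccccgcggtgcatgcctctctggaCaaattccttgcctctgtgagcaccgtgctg
Hba-a2: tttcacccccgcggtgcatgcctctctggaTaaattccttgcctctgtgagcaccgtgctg
Hbb-b1: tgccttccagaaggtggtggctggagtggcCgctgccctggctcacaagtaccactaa
Hbb-b2: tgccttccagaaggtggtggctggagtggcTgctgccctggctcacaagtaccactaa

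Reads that fit several places were not counted, so that each pair was counted from its distinct stretches, largely outside the coding sequence. Of all distinct 75-base stretches of the annotated transcripts (the read length is not known), 33.4% were unique to Hba-a1 and 14.8% to Hba-a2, and the remainder were shared within the pair. For Hbb-b1 the unique share was 58.3% and for Hbb-b2 43.4%. For Alas2 it was 90.1%. The remainder was shared with Apex2, a DNA repair gene on the opposite strand whose annotated exons hold the same stretches. The counts of a single globin gene are therefore lower bounds on its transcripts, and levels of members of a pair are uncertain relative to each other. The counting did not use strand, so that Alas2 and Apex2 reads lying only in shared exons cannot be told apart. Such reads were set aside as ambiguous and counted for neither gene, so that the Alas2 counts leave them out.

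The sequences upstream of the genes are shown as a description. Whether they bear on the joint movement of the 4 globin genes across libraries was not tested. RefSeq's promoter windows hold the 250 bases before each RefSeq start, and 5 windows matched mm9 exactly at the 5 genes. RefSeq carries the beta genes of these loci as Hbb-bs and Hbb-bt, and its window of Hbb-bs matched at Hbb-b1 and that of Hbb-bt at Hbb-b2. The windows of Hba-a1 and Hba-a2 were identical over 247 bases, so that only Hba-a2 is printed, whereas those of Hbb-bs and Hbb-bt shared 51.0% of 249 aligned bases. The mm9 annotation places the gene starts 2 bases (Hba-a2), 167 bases (Hbb-b1), 72 bases (Hbb-b2) and 41 bases (Alas2) before the last base of the window. Capitals mark matches, on either strand, to a GATA word (AGATAA or AGATAG or TGATAA or TGATAG), to CACCC, to CCAAT and to TATAA. The windows cover chr11:32196242-32196491 on the plus strand, chr7:110976443-110976692 and chr7:110962438-110962687 on the minus strand, and chrX:146981710-146981959 on the plus strand.
Hba-a2: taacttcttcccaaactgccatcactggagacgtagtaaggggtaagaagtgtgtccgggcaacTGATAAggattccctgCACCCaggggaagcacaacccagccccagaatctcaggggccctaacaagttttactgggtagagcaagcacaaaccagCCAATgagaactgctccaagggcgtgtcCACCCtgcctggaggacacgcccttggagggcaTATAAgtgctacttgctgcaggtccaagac
Hbb-bs: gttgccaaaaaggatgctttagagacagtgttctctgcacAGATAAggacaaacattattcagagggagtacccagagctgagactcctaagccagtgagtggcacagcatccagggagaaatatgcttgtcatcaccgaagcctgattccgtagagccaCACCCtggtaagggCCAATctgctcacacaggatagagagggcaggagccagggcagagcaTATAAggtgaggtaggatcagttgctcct
Hbb-bt: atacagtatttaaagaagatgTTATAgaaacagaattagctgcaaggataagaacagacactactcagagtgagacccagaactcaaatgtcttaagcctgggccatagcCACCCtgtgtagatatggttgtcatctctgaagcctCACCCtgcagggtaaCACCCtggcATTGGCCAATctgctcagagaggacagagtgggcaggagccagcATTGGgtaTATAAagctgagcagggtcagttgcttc
Alas2: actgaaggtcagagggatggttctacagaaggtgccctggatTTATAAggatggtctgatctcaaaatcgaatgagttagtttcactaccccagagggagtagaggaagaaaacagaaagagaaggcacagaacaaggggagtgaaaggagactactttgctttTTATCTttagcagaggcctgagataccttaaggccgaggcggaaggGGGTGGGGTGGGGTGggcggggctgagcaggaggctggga

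A TATAA word began 27 to 30 bases before the RefSeq start in all 4 globin windows, whereas those of Alas2 began 207 and 208 bases before it. A CCAAT word lay 75 to 91 bases before the start in the 4 globin windows and was absent from that of Alas2. CACCC occurred in all 5 windows, 3 times in Hbb-bt and 3 times in Alas2. A GATA word occurred once in each window but that of Hbb-bt, which held none of the 4 GATA words. Over the 32851 promoter windows of the table, 26.5% held a GATA word, 52.0% CACCC, 33.8% CCAAT and 22.8% TATAA, and 1.08% held all of them, as the windows of Hba-a1, Hba-a2 and Hbb-bs did. These matches describe letters and not binding.

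All 5 genes passed the filter on low counts, which kept 16183 genes. Per kilobase of exon, Hbb-b1 had the highest level, with a mean of 22.9 CPM per kb over the 18 libraries. Hba-a1 followed with 8.89, Hba-a2 with 5.76 and Hbb-b2 with 4.78 CPM per kb, and Alas2 was lowest at 0.824 CPM per kb. These levels divide counts from the unique stretches by the full exon length. The unique share ran from 14.8% for Hba-a2 to 58.3% for Hbb-b1, so that the order among the 4 globin genes is uncertain for their transcripts. The globin genes summed to 11.2 to 93.2 CPM per library, that is 135 to 1552 counts, so that the counting error of the single genes is not small: Hbb-b2 rested on 11 to 192 counts and Alas2 on 4 to 85.

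Hba-a1 was at 1.87, 5.60 and 3.73 CPM in the 3 WT libraries and at 8.07, 6.72, 2.20 and 2.16 CPM in the 4 Akita libraries. In WT + NACET its lowest value was 3.25, its median 3.92 and its highest 8.68 CPM, and in Akita + NACET the libraries held 9.85, 21.9, 8.81, 20.9 and 7.71 CPM. Akita + NACET 2 and 4 stood apart at more than any other library, and the remaining 3 libraries of that group lay within or just above the upper end of the other groups. Hba-a2 followed the same order, with means of 2.13 ± 1.34 CPM in WT (SD, n = 3), 3.24 ± 1.58 in WT + NACET (n = 6), 2.61 ± 1.45 in Akita (n = 4) and 6.62 ± 3.08 in Akita + NACET (n = 5).

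Hbb-b1, the more abundant of the beta genes in these counts, was at 6.32, 15.4 and 8.13 CPM in WT and at 17.6, 15.0, 7.85 and 6.38 CPM in Akita. In WT + NACET it ranged from 11.7 to 35.2 CPM with a median of 19.0, and in Akita + NACET it was at 19.6, 47.9, 20.99, 51.0 and 18.03 CPM. Every Akita + NACET library lay above every WT and Akita library, while 3 of them lay inside the range of WT + NACET.

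Hbb-b2 was at 1.80, 1.92 and 1.27 CPM in WT and at 2.39, 1.68, 1.01 and 0.912 CPM in Akita. In WT + NACET it ranged from 1.29 to 4.88 CPM with a median of 2.09, and in Akita + NACET it was at 3.45, 11.1, 4.79, 11.9 and 2.87 CPM. The Akita + NACET libraries again lay above all WT and Akita libraries, with the same pair of libraries, 2 and 4, at the top.

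Alas2 was at 1.58, 1.92 and 1.99 CPM in WT, the group with the least spread, and at 1.33, 2.03, 0.942 and 0.746 CPM in Akita. In WT + NACET it ranged from 0.273 to 2.09 CPM with a median of 1.40, the lowest value resting on 4 counts. In Akita + NACET it was at 3.10, 5.01, 1.91, 4.04 and 3.20 CPM, above all other libraries but for Akita + NACET 3. That library was the third highest of its group in Hbb-b2, so that Alas2 and the globins did not rank the libraries alike.

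**Figure D1:**
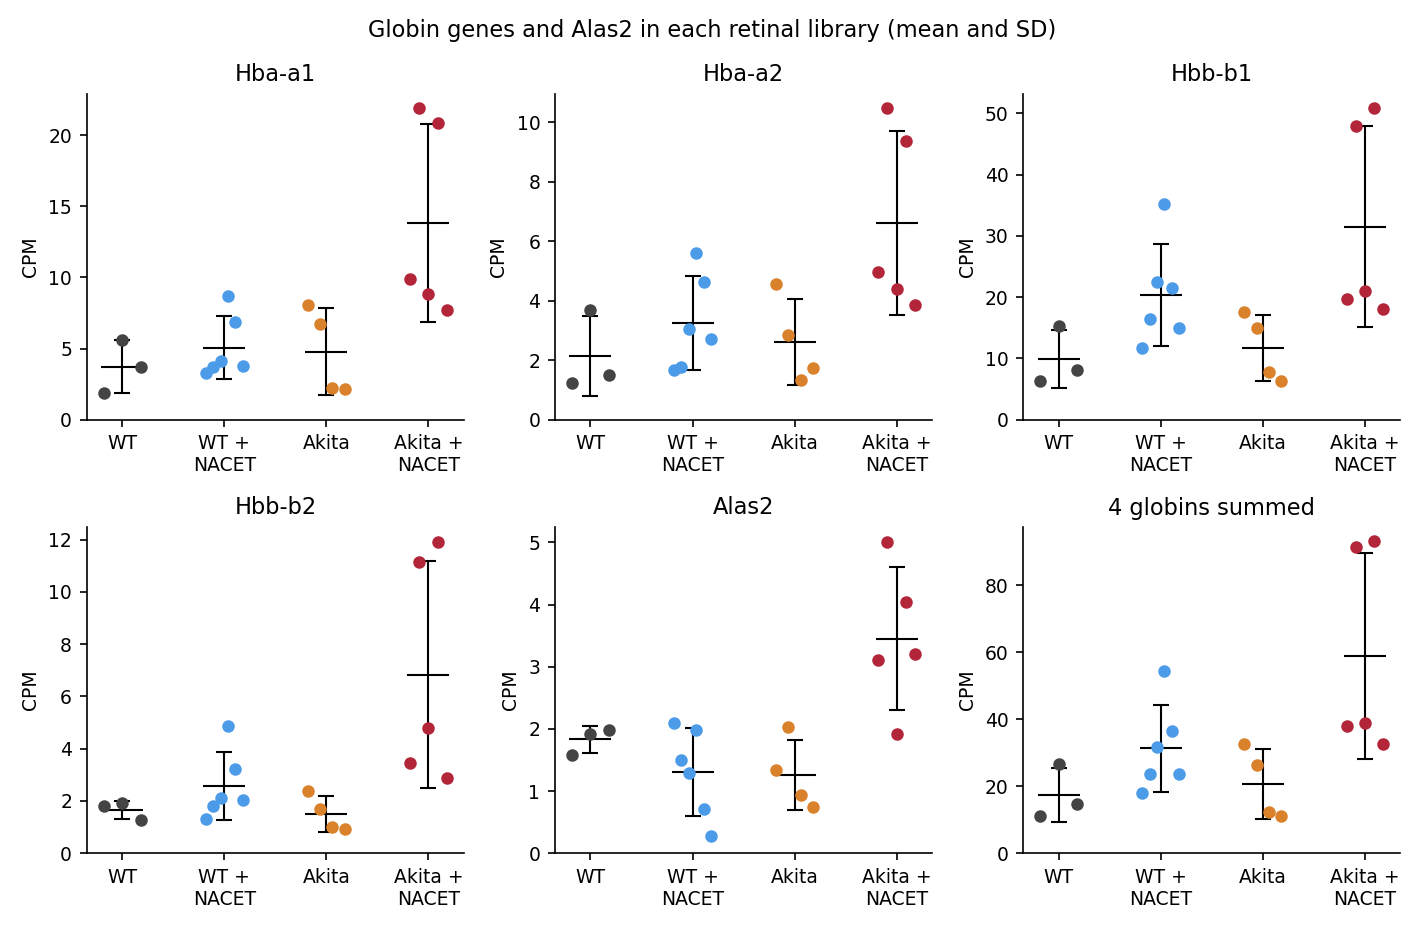
Level in CPM (y axis, linear from 0) of each gene and of the 4 globins summed in each of the 18 libraries, grouped on the x axis, with points in replicate order from left to right and the mean and SD in black. Akita + NACET 2 and 4 sit at the top of all 4 globin panels, and the summed globins of Akita + NACET average 58.8 CPM against 17.5 CPM in WT.

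Summed over the 4 genes, globin CPM averaged 17.5 ± 8.05 in WT (SD, n = 3), 31.3 ± 13.1 in WT + NACET (n = 6), 20.6 ± 10.52 in Akita (n = 4) and 58.8 ± 30.7 in Akita + NACET (n = 5). The lowest Akita + NACET library, at 32.5 CPM, lay above all 3 WT libraries and just below the highest Akita library, at 32.6 CPM. The ratio of the group means was 2.85 for Akita + NACET against Akita and 1.79 for WT + NACET against WT.

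The first question was whether diabetes alone shifted these transcripts. Its comparison shares the Akita libraries with the choice of the set, which low Akita values favoured. The p-values below are therefore not independent of that choice and do not settle the question. Between Akita and WT, no member was a differentially expressed gene (DEG) at an adjusted p of at most 0.05 in edgeR's quasi-likelihood test, none had an unadjusted p below 0.05 and DESeq2 called none, where 7.64% of all genes tested were DEGs. The log2 fold changes were 0.37 ± 0.56 (SE) for Hba-a1, 0.32 ± 0.54 for Hba-a2, 0.25 ± 0.51 for Hbb-b1, -0.13 ± 0.57 for Hbb-b2 and -0.51 ± 0.46 for Alas2, with edgeR adjusted p from 0.497 to 0.904. No member separated the libraries of both groups without overlap, against 23.2% of all genes. The Akita libraries themselves fell into a higher pair, 1 and 2, and a lower pair, 3 and 4, in each globin gene, and the sign of Hba-a2 and Hbb-b1 turned without Akita 1 (log2 -0.086 and -0.0060), that of Hbb-b2 without Akita 3 or 4 (0.025 and 0.029).

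The second question was what NACET did in normoglycemic mice. Hbb-b1 had a mean of 20.4 ± 8.31 CPM (SD, n = 6) in WT + NACET and 9.93 ± 4.78 CPM (n = 3) in WT, which is 1.05 ± 0.48 (SE) on the log2 scale (edgeR, unadjusted p = 0.0455, adjusted p = 0.245). Of the 6 treated libraries 4 lay above all 3 WT libraries. The log2 fold changes of Hba-a1, Hba-a2 and Hbb-b2 were 0.46, 0.63 and 0.64, and that of Alas2 was -0.47 ± 0.42, with edgeR adjusted p from 0.502 to 0.660. No member was a DEG in edgeR or DESeq2, against 1.48% of all genes, and none separated the groups without overlap, against 11.5%. The higher Nnt of the treated libraries stands beside this comparison, with means of 19.7 ± 2.53 CPM (SD, n = 6) in WT + NACET and 12.2 ± 3.20 CPM (n = 3) in WT.

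The third comparison set diabetic treated retinas against untreated controls. The mean of Hbb-b2 was 6.84 ± 4.36 CPM (SD, n = 5) against 1.66 ± 0.348 CPM (n = 3), a log2 fold change of 2.05 ± 0.53 (SE). For Hba-a1, Hba-a2 and Hbb-b1 the log2 fold changes were 1.90 ± 0.54, 1.65 ± 0.52 and 1.68 ± 0.50, and for Alas2 0.92 ± 0.42. All 5 Akita + NACET libraries lay above all 3 WT libraries in each of the 4 globin genes, and 4 of 5 did so in Alas2. Of all genes, 4.17% separated these groups without overlap, and 1 gene of 16183, which is 0.00618%, was a DEG in edgeR and was none of the 5. Nothing is read from these counts, since the same libraries chose the set. Leaving out both Akita + NACET 2 and 4, a choice made after the values were seen, lowered the log2 fold change to 1.16 for Hbb-b2 and 1.24 for Hba-a1, while the globin values of the other 3 libraries still lay above those of WT.

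The fourth comparison, Akita + NACET against WT + NACET, set diabetic against normoglycemic mice under treatment. Nnt was at 10.45 ± 0.892 CPM (SD, n = 5) against 19.7 ± 2.53 CPM (n = 6), so that genetic background and diabetes cannot be told apart here. Alas2 averaged 3.45 ± 1.15 CPM (SD, n = 5) against 1.31 ± 0.711 CPM (n = 6), which is 1.39 ± 0.35 (SE) on the log2 scale, and 4 of 5 libraries lay above all 6 of WT + NACET. Hba-a1 had a log2 fold change of 1.44 ± 0.41, Hbb-b2 of 1.41 ± 0.39, Hba-a2 of 1.02 ± 0.39 and Hbb-b1 of 0.63 ± 0.38. No member separated the groups without overlap, against 8.01% of all genes. The size of these differences rested on few libraries. Without Akita + NACET 2 and 4 the log2 fold change was 0.79 for Hba-a1, 0.52 for Hbb-b2 and -0.061 for Hbb-b1. When the outside-exon share entered the model it was 0.79 for Alas2, 1.20 for Hba-a1, 1.35 for Hbb-b2, 0.94 for Hba-a2 and 0.46 for Hbb-b1.

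In the comparison that chose the set, Akita + NACET against Akita, all 5 members were higher in the treated mice. The log2 fold changes were 2.18 ± 0.48 (SE) for Hbb-b2, 1.52 ± 0.47 for Hba-a1, 1.43 ± 0.40 for Alas2, 1.42 ± 0.44 for Hbb-b1 and 1.34 ± 0.45 for Hba-a2. Hbb-b1 and Hbb-b2 separated the libraries of the groups without overlap, as did 14.1% of all genes. Nothing is read from this count. On the same scale, the NACET effect in Akita exceeded that in WT by 1.54 for Hbb-b2, 1.90 for Alas2, 1.07 for Hba-a1, 0.71 for Hba-a2 and 0.38 for Hbb-b1, differences that were not tested because the Akita effect chose the set. Without Akita + NACET 2 and 4 the log2 fold change of Hbb-b2 was 1.30 and that of Alas2 1.09. When the outside-exon share entered the model they were 2.11 and 0.56. The share did not overlap between these groups, so that this model can hardly tell it apart from the group difference.

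**Figure D2:**
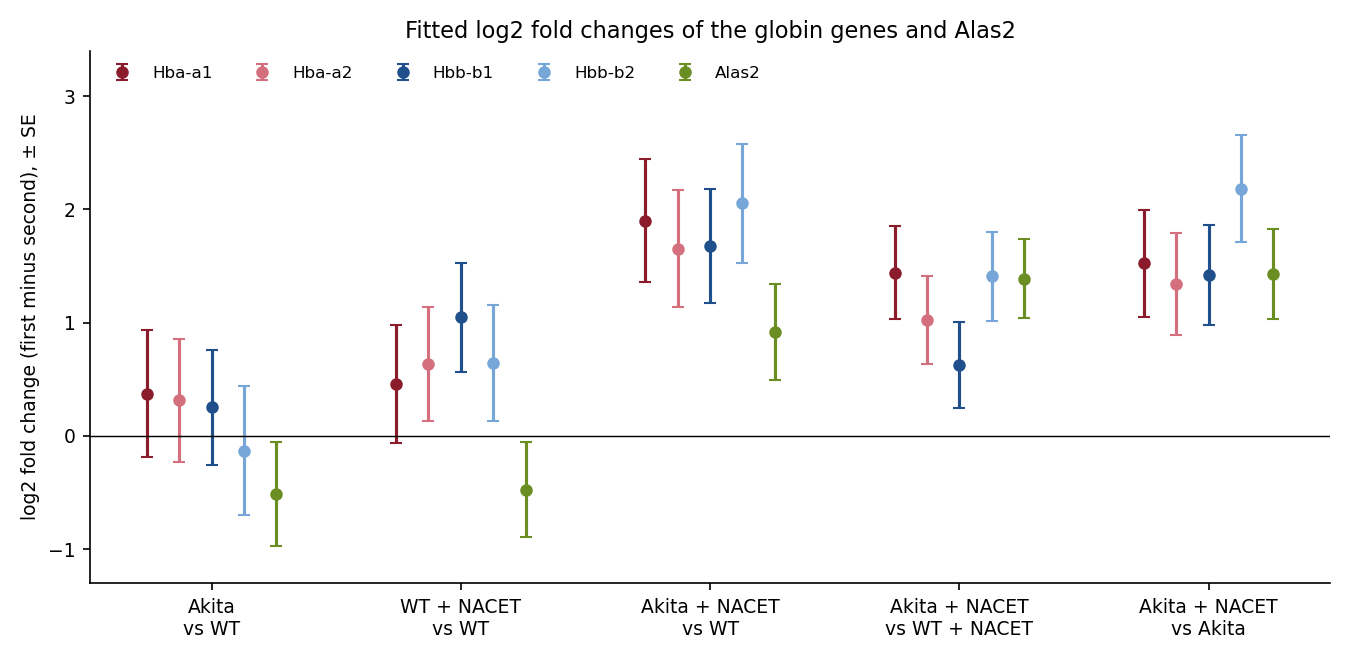
Fitted log2 fold change of each gene (y axis, first group minus second, bars are SE) in the 5 comparisons on the x axis. The estimates lie near 0 for Akita against WT, where they run from -0.51 to 0.37, and above 0 for all 5 genes in each comparison with Akita + NACET.

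The globin genes rose and fell together from library to library, also inside the groups. After removing the group means from log2 CPM, Pearson's r over the 18 libraries was between 0.833 and 0.942 for the 6 pairs of globin genes. The pair Hba-a1 and Hbb-b1, which lie on different chromosomes, had r = 0.942 (permutation p = 1e-05, adjusted over the 10 pairs 5e-05) and a Spearman correlation of 0.932 (permutation p = 1e-05, adjusted 0.0001), where 1e-05 is the smallest p that 100000 resamples can give. Without the 2 libraries farthest from the median of Hba-a1, r was 0.927. For Hbb-b1 and Hbb-b2 it was 0.897 (permutation p = 2e-05, adjusted 6e-05), a Spearman correlation of 0.884 (permutation p = 0.00013, adjusted 0.000325) and 0.855 without the 2 farthest libraries. The permutations were within groups and 2-sided. All 6 globin pairs passed an adjusted p of 0.05. Over the pooled libraries, which include the difference by which the set was chosen, r was 0.910 to 0.959.

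Alas2 was less closely tied to the globins. Inside the groups its r was 0.431 with Hba-a1 (permutation p = 0.0706, adjusted 0.0919), a Spearman correlation of 0.519 (p = 0.0381, adjusted 0.0545 by permutation), and 0.366 without the 2 farthest libraries. With the other 3 globin genes r was between 0.232 and 0.440, and none of the 4 pairs passed. Over the pooled libraries r was 0.496 to 0.647, and it fell to 0.205 to 0.434 without the 2 farthest libraries. Apex2, which shares some exonic stretches with Alas2, was at 13.3 ± 2.11 CPM in WT + NACET (SD, n = 6). It was at 15.9 ± 0.806 CPM in Akita + NACET (n = 5), 15.4 ± 3.02 in Akita (n = 4) and 16.7 ± 3.22 in WT (n = 3).

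**Figure D3:**
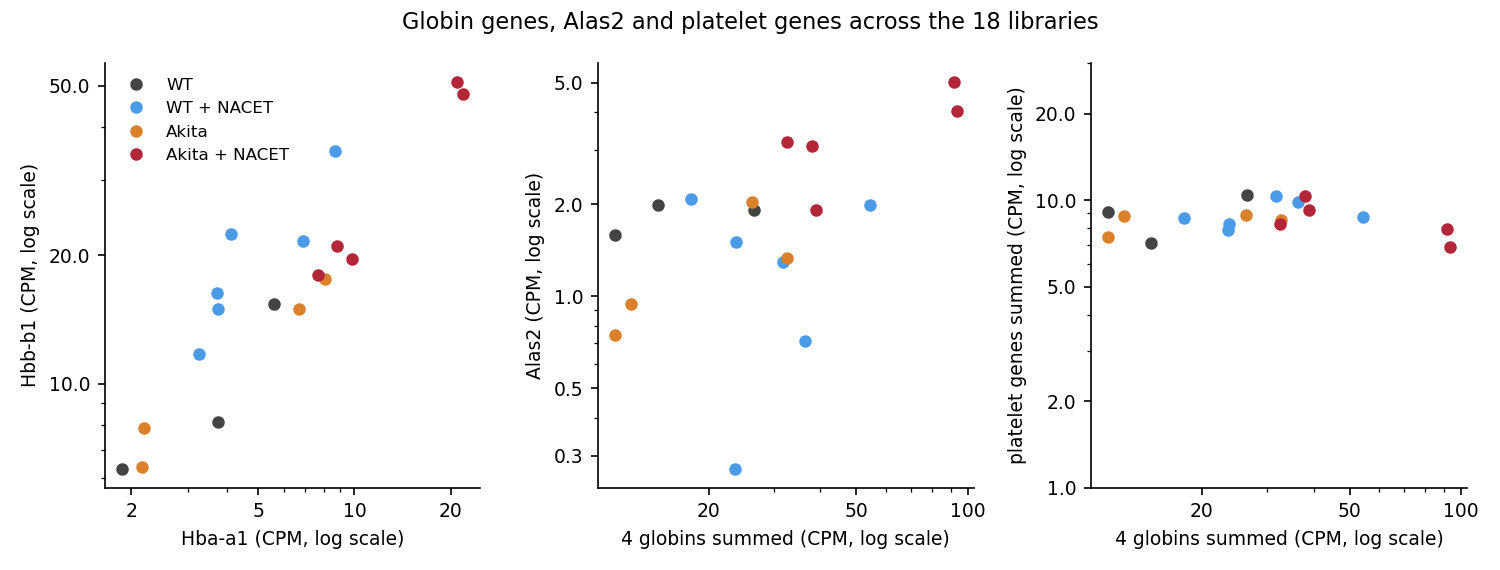
Each point is 1 of the 18 libraries, coloured by group, on log scales in CPM: Hba-a1 against Hbb-b1, the summed globins against Alas2, and the summed globins against the summed platelet genes. The globin genes lie along a line, Alas2 is looser around the globin sum, and the platelet genes stay between 6.90 and 10.4 CPM across the range of globin levels.

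The make-up of the globin counts also differed between libraries, a measure chosen after the values were seen and given without a test. Because Hbb-b2 was chosen for its increase in Akita + NACET against Akita, its higher share of beta counts there restates that choice. Hbb-b2 made up 13.8 to 19.0% of the beta globin counts in Akita + NACET, 10.1 to 12.5% in Akita and 8.64 to 12.95% in WT + NACET, while in WT the 3 values spread from 11.1 to 22.1%. The highest of these, in WT 1, rested on 113 counts, with a 95% Wilson interval of 15.5 to 30.6%. In Akita + NACET 4 the share was 19.0% of 1012 counts, with an interval of 16.7 to 21.5%. Alpha globin made up 22.5 to 31.8% of all globin counts in WT + NACET and 32.5 to 39.1% in Akita + NACET, which did not overlap, against 28.4 to 38.7% in Akita and 27.6 to 35.8% in WT. Hba-a2 made up 28.7 to 44.7% of the alpha counts over all libraries and 31.01 to 33.5% in Akita + NACET. The intervals cover counting error only, and because reads shared within a pair were not counted, these are shares of counts and not of transcripts.

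**Figure D4:**
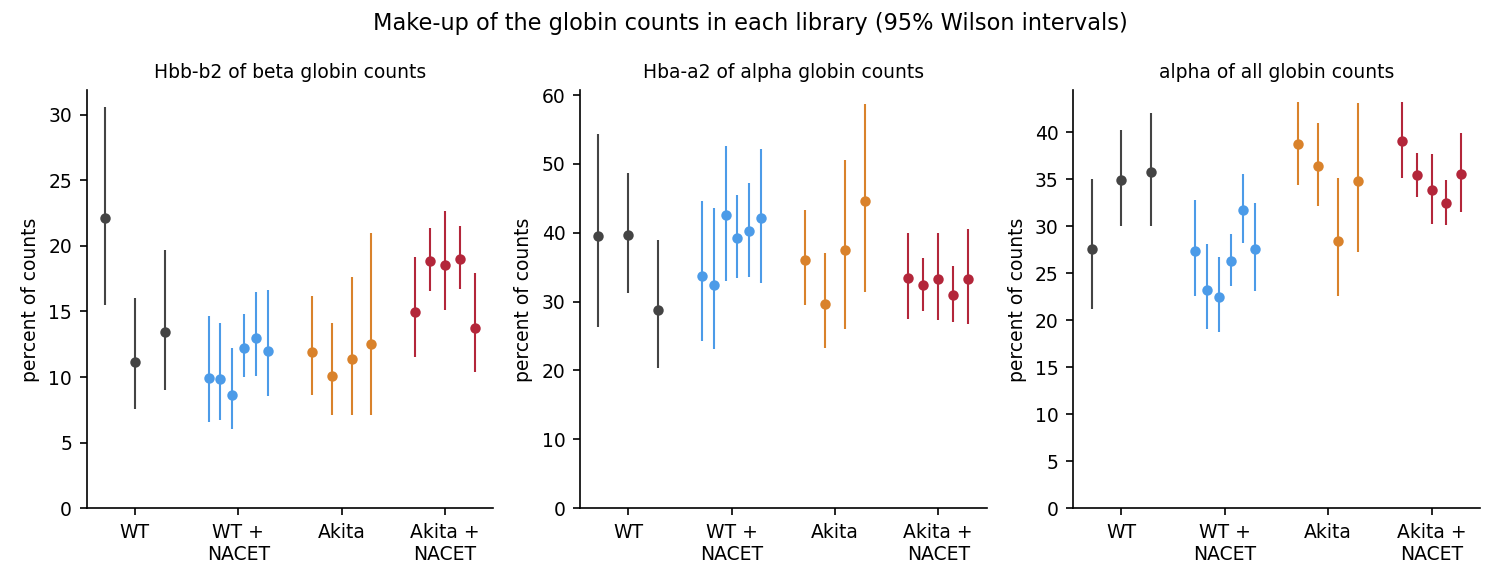
Share of Hbb-b2 in the beta globin counts, of Hba-a2 in the alpha globin counts and of alpha in all globin counts (y axes, percent of counts) in each library, in replicate order within the groups, with 95% Wilson intervals. The Hbb-b2 shares of Akita + NACET, 13.8 to 19.0%, lie above those of Akita, 10.1 to 12.5%, the difference by which Hbb-b2 was chosen.

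Other genes of the globin family were read from a list. Of 12 further globin genes found in the tables, 10 were below 1 CPM in every library, among them the embryonic genes Hba-x, Hbb-bh1 and Hbb-y with at most 2 counts in any library, and 2 passed the filter. Cygb, cytoglobin, was at 81.5 to 153 CPM and Ngb, neuroglobin, at 1.84 to 3.89 CPM, and neither was a DEG in any comparison, with log2 fold changes between -0.15 and 0.22. Myoglobin, Mb, had at most 9 counts and androglobin, listed as 9130014G24Rik, at most 8.

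DEGs were 9.65% of all genes in Akita + NACET against Akita, and the lists that follow are to be read beside that share and beside the 7.64% of Akita against WT and the 13.3% of Akita + NACET against WT + NACET. When the outside-exon share entered the model, the DEGs of edgeR over all genes fell from 1562 to 0, from 1237 to 0 and from 2148 to 194 in these 3 comparisons. The share of the Akita libraries did not overlap that of WT or of Akita + NACET. In the comparisons with Akita this model can therefore hardly tell the share apart from the group difference.

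Of the 11 listed enzymes and carriers of heme synthesis, all of which passed the filter, 1 was upregulated in Akita against WT, which was Abcb10, a mitochondrial transporter (log2 0.51 ± 0.11 SE, edgeR adjusted p = 0.0165). In Akita + NACET against Akita none was upregulated and Urod and Abcb10 were downregulated by 0.35 and 0.41 on the log2 scale (adjusted p = 0.0331 and 0.0210), with a list median of -0.11 and -0.003 over all genes. Against WT + NACET, Abcb10 was upregulated (0.32) and Uros (-0.33) and Fech (-0.22) were downregulated. None was a DEG in WT + NACET or in Akita + NACET against WT. Alas1, which encodes the housekeeping form of the same enzyme, was at 41.3 to 62.3 CPM and was no DEG, with log2 fold changes between -0.27 and 0.01.

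Of the genes that handle heme, globin and iron after red cells break down, 12 were tested and none was upregulated in any comparison. Tfrc, the transferrin receptor, and Fth1, the ferritin heavy chain, were downregulated against Akita (log2 -0.66 ± 0.14 SE and -0.49 ± 0.15, edgeR adjusted p = 0.0201 and 0.0444). Hmox1 and Blvra, which degrade heme to biliverdin and bilirubin, were downregulated against WT + NACET (-0.76 ± 0.23 and -0.25 ± 0.08, adjusted p = 0.0321 and 0.0435). Lrp1, a receptor for hemopexin complexes, was downregulated in Akita against WT (-1.15 ± 0.31, adjusted p = 0.0349). Ftl1, the ferritin light chain, was no DEG, at 162 to 274 CPM. Haptoglobin (Hp), hemopexin (Hpx) and Cd163, the receptor for haptoglobin and hemoglobin, had at most 9 counts in any library.

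The membrane proteins that define red cells were near the limit of detection. Of 26 genes of red cell membrane and maturation found, 12 were below 1 CPM in every library, and Rhag and Icam4 had no count. Slc4a1, the band 3 anion exchanger, did not pass the filter and was counted 3 to 11 times in the Akita + NACET libraries and 0 to 4 times in the other 13 libraries, with means of 0.455 CPM in Akita + NACET, 0.105 in Akita, 0.0506 in WT + NACET and 0.0479 in WT. The 14 genes that passed include many that other retinal cells use, such as Car2 at 700 to 1183 CPM, Epb4.1 at 604 to 1273 CPM and Aqp1 at 212 to 530 CPM. In Akita + NACET against Akita, Add2 was upregulated (log2 0.45) and Epb4.1 (-0.44) and Bpgm (-0.43) were downregulated. The latter pair was upregulated in Akita against WT by 0.54 and 0.49. Against WT + NACET, Prdx2 was downregulated (-0.43).

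Of 10 erythroid transcription factors and the erythropoietin receptor, taken as 1 list, 5 were below 1 CPM in every library, and these were Gata1, Klf1, Tal1, Nfe2 and Gfi1b. Bcl11a, a repressor of embryonic globin genes that neurons also express, was downregulated in Akita against WT (log2 -0.69 ± 0.20 SE, edgeR adjusted p = 0.0422) and upregulated in Akita + NACET against Akita (0.77 ± 0.18, adjusted p = 0.0206). Ldb1 and Lmo2 were no DEGs, at 4.84 to 8.23 and 3.97 to 9.78 CPM. Of a list named for neighbours of the alpha globin genes, 8 were tested, and the positions of the listed genes on mm9 were not checked. Rgs11 was downregulated in Akita against WT (-0.66, adjusted p = 0.0435) and Snrnp25 in Akita + NACET against WT + NACET (-0.36, adjusted p = 0.0269), and none was a DEG between Akita + NACET and Akita, with Luc7l at 0.12 on the log2 scale.

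Markers of other blood and vessel cells were set beside the globins. Platelet genes summed to 6.90 to 10.3 CPM in Akita + NACET and 7.46 to 8.92 CPM in Akita, none of the 3 tested was a DEG in any comparison, and 6 of the 10 were below 1 CPM in every library. Itga2b, Gp1bb and Gp1ba made up most of the sum. Ppbp had at most 3 counts, and Pf4 at most 28, in a WT + NACET library. Leukocyte genes summed to 3.86 to 15.5 CPM in Akita + NACET and 3.15 to 17.6 CPM in Akita, mostly as Lyz2, 13 of 15 were below 1 CPM in every library and neither of the tested pair, Ptprc and Lyz2, was a DEG.

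Of 18 endothelial genes tested, 3 were upregulated in Akita + NACET against Akita and 2 were downregulated in Akita against WT, against 9.65% and 7.64% of all genes. They summed to 171 to 202 CPM in Akita + NACET, 112 to 170 CPM in Akita, 157 to 215 CPM in WT + NACET and 151 to 200 CPM in WT, mostly as Kdr, Flt1 and Plvap, which were no DEGs. In Akita + NACET against Akita, Cldn5, a tight junction protein of the blood-retina barrier, Sox17 and Slco1a4 were upregulated (log2 2.14 ± 0.54 SE, 1.94 ± 0.55 and 1.65 ± 0.48, edgeR adjusted p = 0.0239, 0.0340 and 0.0410), with a list median of 1.31, beside -0.003 over all genes. Cldn5 and Eng were downregulated in Akita against WT (-2.11 and -1.59), with a list median of -1.01. The list median was -0.13 in WT + NACET against WT, 0.045 in Akita + NACET against WT and 0.47 in Akita + NACET against WT + NACET. In the same comparison of Akita + NACET with Akita, the mural cell genes Pdgfrb and Higd1b were upregulated and Vtn, which photoreceptors also express, was downregulated. Pdgfrb was downregulated in Akita against WT (-1.08), and Rgs5 and Vtn in Akita + NACET against WT + NACET (-0.66 and -0.35). Whether the vessel content of the samples had a part in the globin values was not tested.

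Of the 14 genes of retinal neurons and glia, Pax6 was downregulated in Akita against WT (log2 -0.53), Gnat1 was downregulated in Akita + NACET against Akita (-0.65), and Opn1sw and Glul were downregulated in Akita + NACET against WT + NACET (-0.82 and -0.45). Of 12 pigment epithelium genes, Tyr was downregulated in the last of these comparisons (-2.21), and none was a DEG in the other 4. The list summed to 176 to 1009 CPM in WT, 695 to 1591 CPM in WT + NACET, 88.0 to 289 CPM in Akita and 115 to 726 CPM in Akita + NACET. In WT + NACET against WT, the median log2 fold change of the 12 genes was 0.69, beside 0.63 for the 5 members. Of these members Hbb-b1 was highest at 1.05 and Alas2 lowest at -0.47. In Akita + NACET against Akita the median of the 12 genes was 0.83, beside 1.43 for the members. For the 12 genes it was -1.69 in Akita against WT, -0.44 in Akita + NACET against WT and -1.37 in Akita + NACET against WT + NACET. The medians of the 5 members there were 0.25, 1.68 and 1.39, in the same order. The part of this tissue in the globin values was not tested. None of the 13 lens genes was a DEG in any comparison. Without the 3 libraries with over 1000 CPM of lens genes, the log2 fold changes of the 5 members were 0.76 to 1.67 in Akita + NACET against WT + NACET and at least 1.498 against Akita.

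Over the 18 libraries, the log2 summed globin CPM had an r inside the groups of 0.357 with the endothelial sum, 0.416 with the leukocyte sum, 0.466 with the pigment epithelium sum, -0.068 with the pericyte and smooth muscle sum, 0.0780 with the lens sum and 0.00857 with the platelet sum. It was 0.0969 with the outside-exon share and 0.190 with the total of gene counts. These are given as a description, with no p, because the sum runs over the chosen genes.

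The genes whose log2 CPM was most like the summed globins were read from 14467 genes with a mean of at least 1 CPM. Over the pooled libraries the highest r were those of 2700046G09Rik (0.725), Cd34 (0.719), a surface protein of endothelial and progenitor cells, Chodl (0.713), Synpo (0.699), Car14 (0.694), Arfgap1 (0.692), Gm14342 (0.686), Trub2 (0.683), Arhgef37 (0.676) and Mt2 (0.669), a metallothionein. With group means removed they were Gm13552 (0.860), Slc47a1 (0.802), Casp6 (0.798), Mthfsd (0.796), Pla2g2c (0.773), Gm9182 (0.773), Ogg1 (0.763), Mutyh (0.757), Bivm (0.748) and Gm6565 (0.748). For scale, 1 in 100 of all these genes had an r above 0.517 pooled and above 0.580 with group means removed. No gene of the red cell, platelet or leukocyte lists was among them, and the highest values of so many genes are extremes by selection.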

How the data were processed

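Retinal poly(A) RNA was made into libraries with the TruSeq RNA v2 kit, which does not mark strand. Per the labels and the study's methods, the authors aligned reads to mm9 with TopHat2 2.1.0 on Bowtie and counted them with HTSeq 0.11.2 without strand, leaving out reads that fit several places (mean 9.04% of the entries counted). The deposited values are raw counts per gene symbol. The read length is not given in the sources used here.

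From the counts, 206 ribosomal RNA genes (0.977% of counts) and the entry without a name (0.0054%) were removed. edgeR 4.0.16 was fitted to all 4 groups together (filterByExpr, TMM, quasi-likelihood test with robust dispersion, Benjamini-Hochberg over all 16183 genes, threshold 0.05), and CPM are scaled by the TMM factors. No p is given for the 5 genes in comparisons with Akita + NACET, whose libraries took part in their choice. Levels per gene are means ± SD over libraries, and log2 fold changes carry the SE of the fit. Alternatives were DESeq2 1.42.0, its size factors, other filters, 2-group fits, a replicate block, the outside-exon share in the model, ribosomal RNA genes kept, the globin pairs summed and each library left out. Correlations used log2 CPM with a prior count of 2 and 100000 permutations. Scripts were tested on simulated data. Uniqueness of 75-base stretches was counted over all transcripts of the mm9 annotation, where 96.1% of the gene names were found, and promoter windows came from RefSeq (GRCm38.p6), matched exactly to mm9.

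The genes and lists were chosen with earlier results of these data known. To be named by rule were the 5 genes, in each list (other globins, heme synthesis, heme and globin turnover, red cell membrane and maturation, erythroid factors, platelet, leukocyte, endothelium, pericyte and smooth muscle, alpha globin neighbours, and as checks retinal neurons and glia, pigment epithelium and lens) the 3 highest by mean CPM and any DEGs up to 5, and the 10 genes most like the summed globins, pooled and with group means removed. In some lists, among them pigment epithelium and lens, not all of the highest are named. Some genes with few counts, such as Slc4a1, Hp, Hpx and Cd163, were named outside the rule. In these lists 3 older symbols were corrected from RefSeq synonyms after the values had been seen, and results of 3 genes are not reported here. Same-numbered libraries did not deviate together.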

Additional observations from a re-analysis of the deposited data

How the results depend on the processing

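Across the alternatives the direction of the globins in every comparison with Akita + NACET held except where both Akita + NACET 2 and 4 were left out, a choice made after the values were seen, when Hbb-b1 against WT + NACET was at -0.061. Without both libraries the log2 fold change also moved by more than the SD between libraries for Hbb-b2 in all 3 comparisons with Akita + NACET (1.16 against WT, 0.52 against WT + NACET, 1.30 against Akita) and for Hba-a1 against WT + NACET (0.79), as did Alas2 against Akita with the outside-exon share in the model (0.56). In Akita against WT and in WT + NACET against WT, no member was a DEG in any alternative run. For Akita against WT the sign turned with a library left out for Hba-a2 (range -0.086 to 0.932), Hbb-b1 (-0.0060 to 0.699) and Hbb-b2 (-0.435 to 0.029), for Hbb-b2 with the pairs summed (0.20), and for Alas2 with the outside-exon share (0.32). For WT + NACET against WT it turned for Alas2 with that share (0.083). With the outside-exon share in the model, DEGs of edgeR over all genes fell to 0 in Akita against WT and Akita + NACET against Akita. In both comparisons the share did not overlap between the groups, so that it can hardly be told apart from the group difference. DEGs fell to 61 in WT + NACET against WT and to 194 in Akita + NACET against WT + NACET. The causes were not tested beyond the fewer libraries or genes that these fits hold. With 50-base stretches the unique share was 27.3% for Hba-a1 and 10.5% for Hba-a2. The same replicate numbers did not pair the libraries (4 of 22 same-numbered pairs had r above 0.1), and the replicate block gave 1363 DEGs against 2148 for Akita + NACET against WT + NACET, 219 against 1562 for Akita + NACET against Akita, 507 against 1237 for Akita against WT and 190 against 240 for WT + NACET against WT. Depth limits Hbb-b2 and Alas2 most, with 11 and 4 counts in their lowest libraries.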
